A study of Mus musculus with 5 samples.

Results

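The vascular endothelial growth factor (VEGF) family was followed here as 10 genes of the 21835 in the table, taken by name. They were the 5 ligands *Vegfa*, *Vegfb*, *Vegfc*, *Vegfd* and *Pgf*, the 3 receptor tyrosine kinases *Flt1*, *Kdr* and *Flt4*, and the 2 neuropilin co-receptors *Nrp1* and *Nrp2*. RNA had been sequenced from murine lung cancer-associated fibroblasts (CAFs), the fibroblasts of a tumor's stroma, grown in alpha-MEM. CAF-200 (3 samples) overexpressed miR-200b, miR-200a and miR-429, which lie in 1 cluster, from a lentivirus, and CAF-vec (2 samples) was the control. Per the labels, the lentiviral vector carried neomycin resistance and infected CAFs were kept in G418 for more than 2 weeks, and the genotypes are given as miR-200 overexpression and WT control. The study's methods name a hygromycin vector instead, so the resistance gene the cells carried is uncertain. They also describe RNA taken in triplicate, whereas 2 CAF-vec samples were analysed here. Nothing in the labels says whether the samples of a group were separate cultures, so the *p* values measure only the spread between these samples, which may be technical. The question was how miR-200 in fibroblasts shifts the supply of vascular growth factors and of the receptors that read them.

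VEGF ligands are secreted proteins that act mainly on endothelial cells, which line vessels. VEGF-A drives blood vessel growth through the receptor encoded by *Kdr*, VEGF-C and VEGF-D drive lymphatic vessel growth through the receptor encoded by *Flt4*, and VEGF-B and placental growth factor bind the receptor encoded by *Flt1*. Neuropilins hold VEGFs at the cell surface beside these receptors and also bind class 3 semaphorins, and tumor fibroblasts are a known source of the ligands.

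A miRNA finds its target mRNAs mainly through its seed, bases 2 to 8 from its 5′ end. The mature miRNAs of the overexpressed cluster are shown because their seeds define the matches sought in the 10 genes; sequences are from RefSeq (GRCm38.p6, chromosome 4, minus strand), with the seed in capitals.
mmu-miR-200b-3p: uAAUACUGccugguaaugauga
mmu-miR-429-3p: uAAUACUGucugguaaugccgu
mmu-miR-200a-3p: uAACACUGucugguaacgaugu
miR-200b and miR-429 share 1 seed, whose match in an mRNA is CAGTATT, and the match of miR-200a is CAGTGTT. These were sought on the mRNA strand of the annotated 3′-UTRs in GENCODE M21 (GRCm38).

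In the longest annotated 3′-UTR, 4 of the 10 genes held a match, and 6 did when every annotated 3′-UTR of a gene was read. Of the 12060 tested genes with a 3′-UTR, 30.3% held a match in the longest one and 31.7% in any. The sites are shown 5′ to 3′ on the mRNA strand, 22 bases each, with the seed match in capitals, so that they can be set beside the levels of their genes.
*Vegfa* (miR-200b and miR-429, minus strand, chr17:46017636-46017642): agtagggtttttttCAGTATTc
*Vegfc* (miR-200b and miR-429, plus strand, chr8:54186395-54186401): aagctcactgtgatCAGTATTt
*Flt1* (miR-200b and miR-429, minus strand, chr5:147564180-147564186): caaccagcccctgaCAGTATTa
*Kdr* (miR-200b and miR-429, minus strand, chr5:75933454-75933460): ggcccccaagtcctCAGTATTt
*Kdr* (miR-200b and miR-429, minus strand, chr5:75933088-75933094): cccaccttttgtatCAGTATTa
*Flt4* (miR-200a, plus strand, chr11:49652668-49652674): tctgccctttttggCAGTGTTc
*Nrp2* (miR-200a, plus strand, chr1:62817525-62817531): agatggtaatgtcgCAGTGTTt
*Nrp2* (miR-200b and miR-429, plus strand, chr1:62818333-62818339): ggaaatctaattcaCAGTATTg
The *Flt1* site and the second *Kdr* site are followed by an A, which extends the match to 8 bases. The *Flt1* site lay in 1 of 2 annotated transcripts with a 3′-UTR, the *Vegfa* site in 2 of 4 and both *Nrp2* sites in 4 of 6. The longest *Flt1* and *Nrp2* 3′-UTRs held none. *Vegfb*, *Vegfd*, *Pgf* and *Nrp1* held none in any annotated 3′-UTR, and their longest ones were 417, 520, 776 and 549 bases, against a median of 1174 bases over the tested genes. Among tested genes whose longest 3′-UTR was within 20% of that of *Kdr* (1596 bases), 15.9% held a match to the shared seed of miR-200b and miR-429. The share was 18.8% at the length of *Vegfa* and 10.6% at that of *Vegfc*, and at that of *Flt4* 21.6% held a match to miR-200a. At the lengths of the longest *Flt1* and *Nrp2* 3′-UTRs, 34.1% and 31.5% held a match to the shared seed. At that of *Nrp2*, 43.4% held a match to miR-200a. A match describes letters in these windows and is not a measured site of binding.

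**Figure D1:**
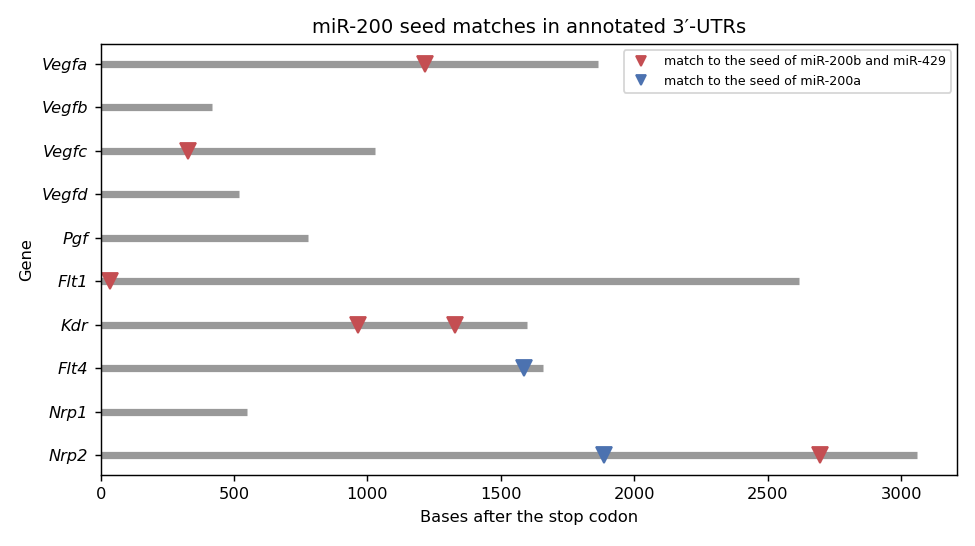
Position of each 7-base seed match along the 3′-UTR of the 10 genes, in bases after the stop codon (x axis), with genes on the y axis. Grey bars are the longest annotated 3′-UTR, or for *Flt1* and *Nrp2* the annotated 3′-UTR of 2616 and 3058 bases that holds the match; red and blue triangles are matches to the 2 seeds. *Kdr* and *Nrp2* carry 2 matches each, and the 4 genes with short 3′-UTRs carry none.

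The deposited values are in CPM (read counts relative to the library's total), scaled by the authors to the same total in every sample, so the read depth behind them is unknown. The commonest low value was 0.0091 to 0.0105 CPM in the 5 samples, and the lowest family value, *Kdr* in CAF-200 3, was about 39 such steps. The same 6127 genes were at 0 in all CAF-200 samples, whereas 7898 and 7413 were in the CAF-vec samples. Over genes, the log2 difference of the CAF-vec pair had an SD of 0.49, while each pair within CAF-200 had one of 0.19 to 0.20. Whether the processing before deposit narrowed the spread within CAF-200 was not tested. The overexpressed miRNAs are not measured by these mRNA libraries. *Zeb1*, a known miR-200 target, was 43.5 and 50.7 CPM in CAF-vec and 37.8, 37.5 and 34.1 CPM after overexpression, a log2 difference of -0.36 (adjusted *p* = 0.0504, limma). *Zeb2*, another such target, had one of -0.23 (adjusted *p* = 0.374, limma), which turned to 0.0828 without CAF-vec 1. Of 12 fibroblast markers 11 were high enough to test, with *Fap*, a CAF surface protease, at most 0.391 CPM in any sample, and *Lum*, *Dcn*, *Acta2* and *Thy1* rose in CAF-200 at an adjusted *p* under 0.01 (limma), against 4.45% of all genes tested. None of the 11 fell at that threshold, and at an unadjusted *p* under 0.05, 2 were lower and 5 higher (27.6% and 17.3% of all genes). *Col1a1* was 4613 and 2003 CPM in CAF-vec and at most 1719 CPM in CAF-200, and *Col1a2* 5185 and 2567 CPM against at most 2284 CPM, with CAF-vec 1 far above CAF-vec 2. *Col3a1* was 76.9 and 35.9 CPM against at least 99.95 CPM, *Pdgfrb* 213.8 and 218.4 CPM against at most 186.8 CPM, and *Vim*, *Pdgfra* and *S100a4* overlapped between the groups. The 12 markers summed to 13510 to 17340 CPM in the controls, against 11470 to 12400 CPM in CAF-200.

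Fold-changes below are CAF-200 over CAF-vec on log2(CPM + 0.5), which understates the change of low genes, and adjusted *p* values are from limma over the 12175 genes that reached 0.5 CPM in 2 or more samples. All 10 family genes were high enough to test. Of these, 4 fell in CAF-200 at an adjusted *p* under 0.01 (*Vegfb*, *Flt1*, *Kdr* and *Nrp2*), against 5.57% of all genes tested. At that threshold 0 of the 10 were higher (limma), against 4.45% of all genes tested, although *Vegfa*, *Vegfc*, *Pgf* and *Flt4* were higher at an unadjusted *p* under 0.05, as were 17.3% of all genes. With a log2 fold-change beyond 1 required as well, 2 were lower (*Vegfb* and *Kdr*) and 0 higher, against 2.35% and 2.37% of all genes. At an adjusted *p* under 0.05 all 10 differed (limma), against 30.5% of all genes, with 6 lower (18.6%) and 4 higher (11.9%). At an unadjusted *p* under 0.05 all 10 differed as well, against 44.9% of all genes. The CAF-200 values lay outside the range of the CAF-vec values for all 10 genes, as they did for 61.6% of all genes tested, with 6 below it (37.3%) and 4 above it (24.3%). In bulk samples, fewer cells of a type and less RNA per cell cannot be told apart. The median log2 fold-change of the 10 was -0.55, and that of all genes tested was -0.094. The median size, regardless of sign, was 0.75 for the family and 0.32 for all genes. With quantile normalization 3 were lower and 1 higher at an adjusted *p* under 0.01 (limma), against 5.00% and 5.86% of all genes. With centring on each sample's median 3 were lower and 2 higher, against 4.46% and 5.91%. Without any 1 of the CAF-200 samples no family gene was called at an adjusted *p* under 0.01 (limma). Of all 12175 genes at most 1 was. All 10 family genes kept an unadjusted *p* under 0.05 (limma), 6 lower (19.02% to 20.96% of all genes) and 4 higher (12.36% to 12.8%). Without CAF-vec 1 or without CAF-vec 2, 6 were lower and 3 higher at an adjusted *p* under 0.01 (limma). Of all genes, 16.0% were lower and 12.7% higher without CAF-vec 1, and 30.9% and 18.9% without CAF-vec 2, with the lone CAF-vec sample assumed to vary like the CAF-200 group.

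**Figure D2:**
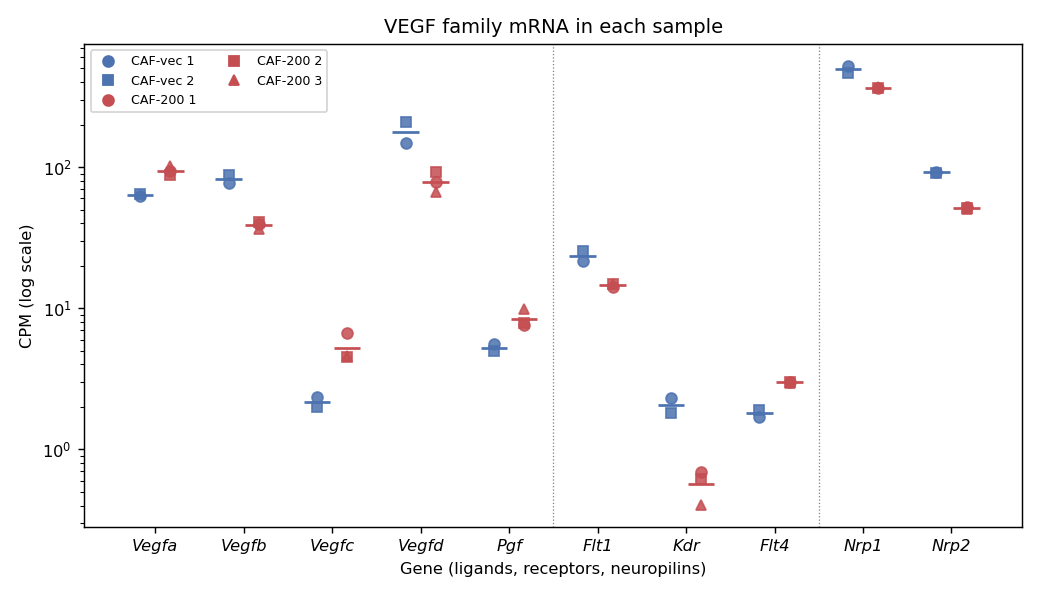
CPM of the 10 genes (y axis, log scale) in each of the 5 samples, by gene (x axis). Blue symbols are the 2 CAF-vec samples, red symbols the 3 CAF-200 samples, and bars the group means. For 6 genes every CAF-200 value lies below both CAF-vec values and for 4 every one lies above.

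Among the ligands, *Vegfb* fell, *Vegfd* had the lower values in CAF-200, and *Vegfa*, *Vegfc* and *Pgf* the higher. *Vegfb* (ENSMUSG00000024962, chr19:6982473-6987651), whose product binds the *Flt1* receptor and is tied to fatty acid uptake and vessel survival, was 77.7 and 88.2 CPM in CAF-vec and 39.4, 40.8 and 36.4 CPM in CAF-200. Every CAF-200 sample was below both controls, and the means were 82.9 ± 7.42 CPM (SD, n = 2) and 38.9 ± 2.25 CPM (SD, n = 3). Its log2 fold-change was -1.08 (SE 0.101, adjusted *p* = 0.00305, limma), beyond 1 in size. *Vegfd* (ENSMUSG00000031380, chrX:164373378-164402650), a lymphatic growth factor, was 148.4 and 207.8 CPM in CAF-vec and 78.0, 91.5 and 66.5 CPM in CAF-200. The CAF-vec samples differed widely, yet the lower of them was above every CAF-200 sample. The means were 178.1 ± 42.0 CPM (SD, n = 2) and 78.7 ± 12.5 CPM (SD, n = 3). With a log2 fold-change of -1.17 (SE 0.195, 95% interval -1.65 to -0.68), its adjusted *p* of 0.0108 just missed the threshold (limma). Neither gene held a seed match.

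*Vegfa* (ENSMUSG00000023951, chr17:46016993-46032369), the main blood vessel growth factor, was 62.2 and 64.6 CPM in CAF-vec and 93.6, 88.2 and 101.4 CPM in CAF-200. All CAF-200 samples were above both controls, and the means were 63.4 ± 1.68 CPM (SD, n = 2) and 94.4 ± 6.65 CPM (SD, n = 3). The ratio of the means was 1.49, with a log2 fold-change of 0.57 (SE 0.0949, 95% interval 0.33 to 0.80, adjusted *p* = 0.0106, limma). *Vegfc* (ENSMUSG00000031520, chr8:54077606-54187096), the other lymphatic growth factor, was 2.36 and 2.01 CPM in CAF-vec and 6.63, 4.50 and 4.55 CPM in CAF-200. The groups were apart, with CAF-200 1 the highest. Its means were 2.18 ± 0.248 CPM (SD, n = 2) and 5.23 ± 1.22 CPM (SD, n = 3), and its log2 fold-change was 1.08 (SE 0.195, 95% interval 0.60 to 1.56, adjusted *p* = 0.0133, limma). *Pgf* (ENSMUSG00000004791, chr12:85166635-85177790), which encodes placental growth factor, was 5.55 and 4.99 CPM in CAF-vec and 7.61, 7.85 and 9.81 CPM in CAF-200. These groups did not overlap either, and the log2 fold-change was 0.62 (SE 0.143, 95% interval 0.27 to 0.98, adjusted *p* = 0.0252, limma). *Vegfa* and *Vegfc* each held a match to the shared seed of miR-200b and miR-429 and had higher values in CAF-200, and *Pgf* held none. The splice forms of *Vegfa*, which differ in their hold on the matrix, are summed in these gene-level values.

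The receptors split, with *Flt1* and *Kdr* falling in CAF-200 and *Flt4* at higher values. *Kdr* (ENSMUSG00000062960, chr5:75932827-75978458), the main signalling receptor for VEGF-A, was 2.31 and 1.82 CPM in CAF-vec and 0.690, 0.612 and 0.405 CPM in CAF-200. All CAF-200 samples were well below both controls, with a CAF-vec mean of 2.06 ± 0.349 CPM (SD, n = 2) 3.63-fold above the CAF-200 mean of 0.569 ± 0.148 CPM (SD, n = 3). The log2 fold-change of -1.26 (SE 0.187, adjusted *p* = 0.00807, limma) was as large as that of 3.70% of all genes tested. It was larger in size than those of *Vegfd* and *Vegfb*, but with a pseudocount of 1 CPM it was -0.96 against -1.16 and -1.07, and without CAF-vec 1 it was -1.13 against -1.41 and -1.17. *Flt1* (ENSMUSG00000029648, chr5:147561604-147726011), which binds VEGF-A tightly with weak signalling and also yields a soluble decoy, was 21.7 and 25.4 CPM in CAF-vec and 14.3, 14.8 and 14.7 CPM in CAF-200. The CAF-200 samples lay close together below both controls. Its means were 23.5 ± 2.68 CPM (SD, n = 2) and 14.6 ± 0.307 CPM (SD, n = 3), with a log2 fold-change of -0.67 (SE 0.104, adjusted *p* = 0.00893, limma). Its adjusted *p* was the last inside the threshold, and that of *Vegfa* (0.0106) the nearest outside it. The *Flt1* call was lost without a filter, with quantile normalization, with centring and without a variance trend (adjusted *p* 0.0105 to 0.0197, limma), and the *Kdr* call without a filter (0.0108). The receptor and soluble forms of *Flt1* were not separated.

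*Flt4* (ENSMUSG00000020357, chr11:49609263-49652739), the receptor for VEGF-C and VEGF-D, was 1.71 and 1.91 CPM in CAF-vec and 3.02, 3.01 and 2.96 CPM in CAF-200. Every CAF-200 value was above both controls, and the means were 1.81 ± 0.141 CPM (SD, n = 2) and 3.00 ± 0.0313 CPM (SD, n = 3). The log2 fold-change was 0.60 (SE 0.117, 95% interval 0.31 to 0.89, adjusted *p* = 0.0161, limma). All 3 receptors held a seed match in some annotated 3′-UTR, *Kdr* and *Flt1* with lower and *Flt4* with higher levels in CAF-200.

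Because these receptors are known best from endothelial cells, markers of such cells were read in the same samples. Of 14 blood endothelial markers, *Tie1*, *Emcn*, *Cldn5* and *Robo4* were at 0 in every sample and 11 were under 0.5 CPM in every sample. *Cdh5*, the junction protein of endothelial cells, was at most 0.122 CPM. Summed over the 14, the markers came to 0.945 to 1.18 CPM in the controls, against 1.94 to 2.49 CPM in CAF-200. Without *Egfl7* the sum was 1.18 and 0.615 CPM in CAF-vec and 0.927, 1.30 and 1.22 CPM in CAF-200, and the groups overlapped. Of the 10 markers above 0, *Pecam1*, *Tek*, *Vwf* and *Plvap* had lower means in CAF-200, and *Cdh5*, *Esam*, *Egfl7*, *Erg*, *Sox17* and *Sox18* higher ones, with *Sox17* at 0 and 0.0295 CPM against 0.352, 0.463 and 0.631 CPM. *Egfl7* (0 and 0.330 CPM against 1.47, 1.19 and 0.718 CPM) was the only one of the 14 high enough to test. It passed the filter through the CAF-200 samples alone, so no *p* is given for it. The 6 lymphatic markers summed to 31.1 to 32.7 CPM in the controls, against 33.5 to 39.8 CPM in CAF-200, nearly all of it *Pdpn*, which fibroblasts also express, and *Lyve1*, *Reln* and *Ccl21a* were at 0. The 7 mural markers summed to 8.63 to 11.9 CPM and 7.54 to 7.97 CPM, with *Kcnj8* and *Abcc9* at 0, and the 10 epithelial markers, with *Krt18*, *Sftpc*, *Nkx2-1* and *Esrp1* at 0, to 0.0843 to 0.388 CPM and 0.0452 to 0.593 CPM. The 8 macrophage and leukocyte markers summed to 8.38 to 9.50 CPM and 12.2 to 12.9 CPM, with *Adgre1* and *Cd3e* at 0 and *Lyz2* higher in CAF-200 (adjusted *p* = 0.00395, limma). Without *Lyz2* this sum was lower in CAF-200, at 7.27 and 7.51 CPM against 4.73, 5.71 and 6.03 CPM. *Csf1r* (4.98 and 2.31 CPM against 2.29 to 2.39 CPM) and *Cd68* (2.25 and 5.01 CPM against 2.39 to 3.54 CPM) overlapped between the groups, with 1 high CAF-vec sample each. The part of any minority of cells in the family's values was not tested.

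Both neuropilins had lower values in CAF-200, and *Nrp2* fell past the threshold. *Nrp2* (ENSMUSG00000025969, chr1:62703285-62818695), the co-receptor of VEGF-C and of semaphorin 3F, was 92.8 and 91.2 CPM in CAF-vec and 52.2, 51.4 and 50.8 CPM in CAF-200. Replicates lay close together in both groups and the groups were far apart, at 92.0 ± 1.14 CPM (SD, n = 2) and 51.5 ± 0.680 CPM (SD, n = 3). The log2 fold-change was -0.83 (SE 0.0773, adjusted *p* = 0.00305, limma). *Nrp1* (ENSMUSG00000025810, chr8:128358604-128503363), the co-receptor of VEGF-A and of semaphorin 3A, was 520.4 and 466.1 CPM in CAF-vec and 360.5, 362.9 and 368.3 CPM in CAF-200. Again no CAF-200 sample reached the controls, with means of 493.3 ± 38.4 CPM (SD, n = 2) and 363.9 ± 4.02 CPM (SD, n = 3). Its log2 fold-change was -0.44 (SE 0.0986, 95% interval -0.68 to -0.19, adjusted *p* = 0.0241, limma). As large a change was seen in 37.0% of all genes tested. *Nrp2* held a match to each seed in 4 of 6 transcripts, and *Nrp1* held none.

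**Figure D3:**
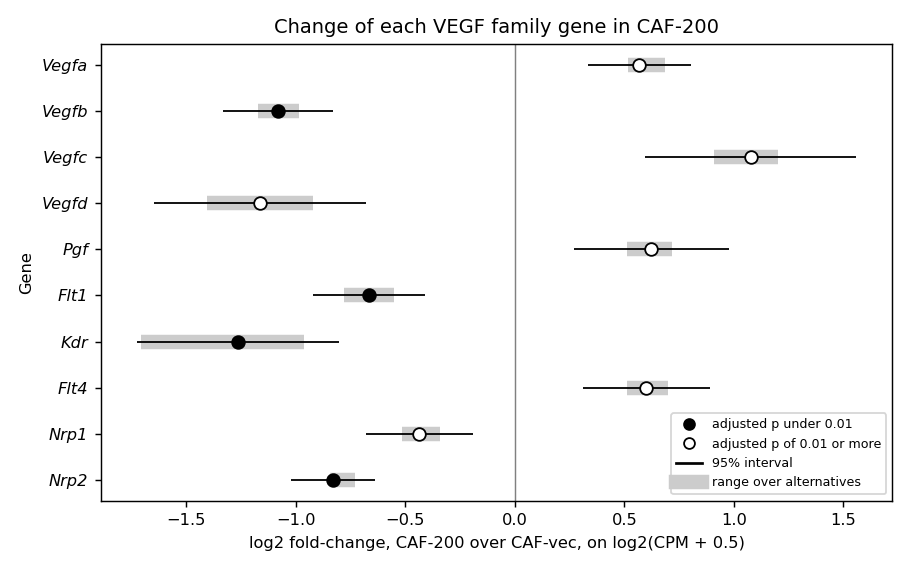
log2 fold-change of CAF-200 over CAF-vec (x axis) for each gene (y axis). Points are the limma estimate, filled where the adjusted *p* is under 0.01, black lines its 95% interval and grey bands the range over the alternative settings. No interval or band crosses 0, and the 4 filled points are *Vegfb*, *Flt1*, *Kdr* and *Nrp2*.

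Levels of different genes were compared per kilobase of annotated exon. In CAF-vec the order of the ligands was *Vegfd* (74.0 ± 17.4 CPM per kb, SD, n = 2), *Vegfb* (51.7 ± 4.62), *Vegfa* (14.8 ± 0.393), *Pgf* (1.82 ± 0.137) and *Vegfc* (0.891 ± 0.101), with no overlap between neighbours. In CAF-200 the order was the same, at 32.7 ± 5.21, 24.2 ± 1.40, 22.0 ± 1.55, 2.90 ± 0.416 and 2.14 ± 0.496 CPM per kb (SD, n = 3). There, however, *Vegfb* (22.7 to 25.4 CPM per kb) and *Vegfa* (20.6 to 23.7) overlapped, as did *Pgf* (2.62 to 3.38) and *Vegfc* (1.84 to 2.71). Per kilobase of the longest coding transcript the order was the same, *Vegfb* (28.4 to 31.9) and *Vegfa* (25.6 to 29.4) still overlapped, and *Pgf* (3.66 to 4.72) and *Vegfc* (1.84 to 2.71) did not. The ligands summed to 143.1 ± 22.2 CPM per kb in CAF-vec and 84.0 ± 4.68 CPM per kb in CAF-200, with 127.4 and 158.8 against 79.2 to 88.6 in single samples. The sum was lower in CAF-200 while *Vegfa*, *Vegfc* and *Pgf* were each higher. *Vegfd* made up 48.4% and 54.3% of the ligand sum in CAF-vec and 34.9% to 42.9% in CAF-200. The share of *Vegfa* was 11.4% and 9.49% in CAF-vec and 26.0%, 23.2% and 29.9% in CAF-200, a difference of 15.9 percentage points beside a pooled SD of 2.83. *Vegfb* went from a mean of 36.3% to 28.9%, and *Vegfc* from 0.636% to 2.55%.

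The receptors summed to 2.07 and 2.32 CPM per kb in the CAF-vec samples, against at most 1.53 in CAF-200, far below the ligand and neuropilin sums in every sample. *Flt1* was the highest receptor, at 1.74 ± 0.198 CPM per kb in CAF-vec (SD, n = 2) and 1.08 ± 0.0227 in CAF-200 (SD, n = 3). *Kdr* (0.256 and 0.201 CPM per kb) and *Flt4* (0.208 and 0.232) overlapped in CAF-vec, but per kilobase of the longest coding transcript they did not (0.390 and 0.307 against 0.273 and 0.305). In CAF-200 *Flt4* (0.360 to 0.367 CPM per kb) was above *Kdr* (0.0448 to 0.0765) in every sample. The share of *Flt4* in the receptor sum was 10.0% and 10.0% in CAF-vec and 23.9% to 24.5% in CAF-200, whereas that of *Kdr* was 12.4% and 8.69% against 3.00% to 5.10%. The neuropilins summed to 58.2 ± 4.02 CPM per kb in CAF-vec (SD, n = 2) and 41.5 ± 0.357 in CAF-200 (SD, n = 3). *Nrp1* made up most of this sum in every sample, 86.1% to 87.2% in CAF-vec and 89.3% to 89.8% in CAF-200. In CAF-200 the *Nrp1* level (36.8 to 37.6 CPM per kb) overlapped that of *Vegfd* (27.6 to 38.0), but per kilobase of the longest coding transcript *Nrp1* (100.2 to 102.4) was above *Vegfd* (32.5 to 44.7). With 2 against 3 samples an exact permutation test cannot give a *p* under 0.1, so no *p* is given for shares and ratios.

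**Figure D4:**
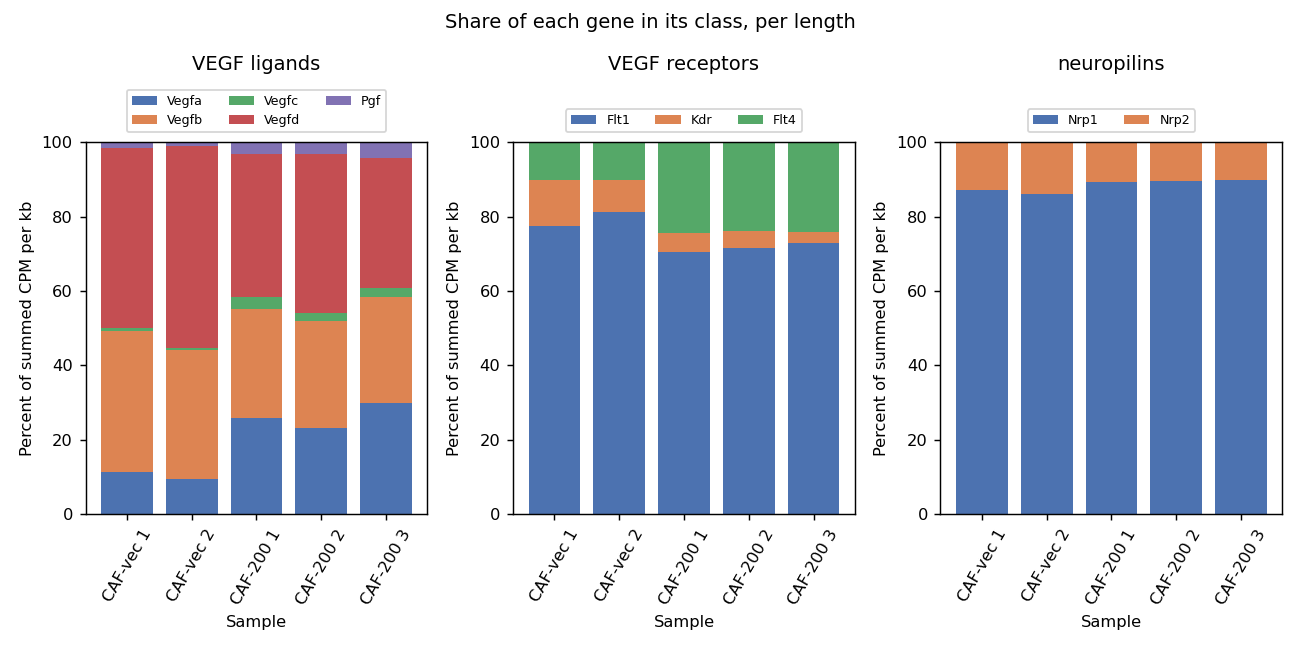
Share of each gene in the sum of its class (y axis, percent of summed CPM per kb of exon) in each sample (x axis), for ligands, receptors and neuropilins. *Vegfa* takes 23.2% to 29.9% of the ligand bars in CAF-200 against 9.49% and 11.4% in CAF-vec, and *Flt4* 23.9% to 24.5% of the receptor bars against 10.0%.

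Ratios between 2 genes of one sample do not depend on how the sample was scaled. By CPM, *Vegfa* was 0.801 and 0.733 times *Vegfb* in the controls, against 2.38, 2.16 and 2.79 times it with miR-200. The order of these ligands in CPM, which does not allow for gene length, was opposite in the groups. The log2 difference was 1.66 beside a pooled SD of 0.160. Per kilobase of exon, *Vegfb* was still above *Vegfa* in CAF-200 1 (24.57 against 21.85) and CAF-200 2 (25.43 against 20.58). It was below *Vegfa* in CAF-200 3 (22.68 against 23.66). The log2 ratio of the lymphatic ligands *Vegfc* to *Vegfd* was -5.98 and -6.69 in CAF-vec and -3.56, -4.34 and -3.87 in CAF-200, a difference of 2.41 with a pooled SD of 0.437. The groups were apart, and *Vegfd* exceeded *Vegfc* in every sample. *Flt1* was 9.37 and 14.0 times *Kdr* in CPM in CAF-vec and 20.6, 24.2 and 36.4 times it in CAF-200. Both receptors fell, and the ratio still separated the groups, by a log2 difference of 1.20 (pooled SD 0.418). The log2 ratio of *Nrp2* to *Nrp1* was -2.49 and -2.35 in CAF-vec and -2.79, -2.82 and -2.86 in CAF-200, a smaller difference of -0.40 (pooled SD 0.0614).

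**Figure D5:**
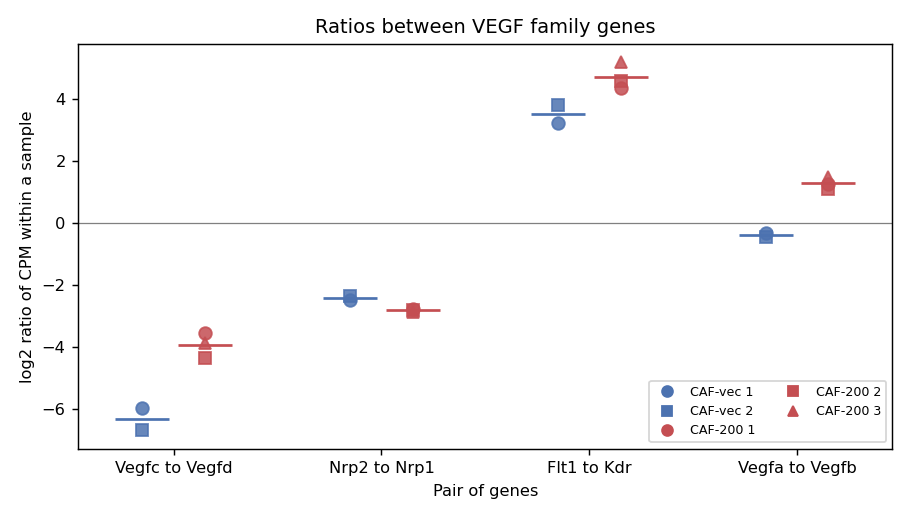
log2 ratio of CPM within a sample (y axis) for 4 pairs of genes (x axis). Blue symbols are the 2 CAF-vec samples, red symbols the 3 CAF-200 samples, and bars the group means; the groups are apart for all 4 pairs, by 2.41 for *Vegfc* to *Vegfd* and by 0.40 for *Nrp2* to *Nrp1*.

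Genes that act with the family were read as 6 lists of 128 genes in all, of which 115 were high enough to test. At an adjusted *p* under 0.01, 9 of these fell and 9 rose in CAF-200 (limma), against 5.57% and 4.45% of all genes tested, and their median log2 fold-change was -0.15. The 9 that rose include *Hspb1*, which reached the level for testing in CAF-200 alone, and without any 1 CAF-200 sample 0 pathway genes were called, as at most 1 of all genes was (limma). Without a filter the calls of *Arnt2*, *Shc2*, *Prkca*, *Mapkapk3*, *Nr4a2*, *Sema3b* and *Plxna2* were lost (limma). Of the 12 tested genes that release, process or store VEGFs outside the cell, 1 fell and 1 rose (median -0.20), against 5.57% and 4.45%. *Ccbe1*, needed for the cleavage that activates VEGF-C, rose from 4.35 and 4.93 CPM to 13.7, 14.4 and 18.0 CPM (log2 fold-change 1.62, adjusted *p* = 0.00300, limma). *Adamts1*, a matrix protease that binds VEGF-A, went from 107.5 and 121.8 CPM to 38.4, 48.9 and 33.2 CPM (log2 fold-change -1.52, adjusted *p* = 0.00466, limma). Both genes had groups that did not overlap, as did 61.6% of all genes tested. Of 13 tested partners, trafficking factors and phosphatases of the receptors, 0 passed in either direction (limma, median -0.14), and at an unadjusted *p* under 0.05 2 were lower and 0 higher, against 27.6% and 17.3% of all genes. Of 15 genes of hypoxia sensing and *Vegfa* mRNA control, 1 fell and 0 rose (median -0.14), against 5.57% and 4.45% of all genes. The one that fell was *Arnt2*, a partner of hypoxia-inducible factors (log2 fold-change -0.82, adjusted *p* = 0.00841, limma), and this call and that of *Plxna2* were also lost with quantile normalization, with centring and without a variance trend (adjusted *p* 0.0104 to 0.0171).

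Among the 57 tested genes of VEGF receptor signal transduction, 4 fell and 4 rose (median -0.21), against 5.57% and 4.45% of all genes tested. *Nfatc4*, a calcineurin-controlled transcription factor, changed by -1.10 on the log2 scale (adjusted *p* = 0.00280), *Shc2*, an adaptor, by -1.27 (adjusted *p* = 0.00804) and *Prkca*, a protein kinase C, by -0.67 (adjusted *p* = 0.00754, limma). *Hspb1*, a small heat shock protein that acts on actin, was 0.303 and 0.389 CPM in CAF-vec and 6.98, 5.26 and 4.87 CPM in CAF-200. It passed the filter through the CAF-200 samples alone and so had to differ, so no *p* is given for it, and 3 risers stand beside it. *Mapkapk3*, a kinase of the family that phosphorylates it, rose on the log2 scale by 1.08 (adjusted *p* = 0.00487, limma). *Ptk2b*, a focal adhesion kinase relative, rose on the log2 scale by 0.97 (adjusted *p* = 0.00616, limma). *Nos3*, the endothelial nitric oxide synthase of this list, was at most 0.0514 CPM and was not tested.

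Of the 9 tested genes that VEGF is known to induce in endothelial cells, 3 rose and 0 fell (median 0.54), against 4.45% and 5.57% of all genes tested. At an unadjusted *p* under 0.05, 6 were higher and 1 lower (limma), against 17.3% and 27.6%. The lower one was *Nr4a3*, a relative of *Nr4a2*, at 1.11 and 1.32 CPM in CAF-vec and 0.281, 0.432 and 0.392 CPM in CAF-200, which passed the filter through CAF-vec alone. *Esm1*, a secreted proteoglycan, rose from 2.32 and 1.44 CPM to 18.2, 14.1 and 19.3 CPM (log2 fold-change 2.91, adjusted *p* = 0.00229, limma). *F3*, the tissue factor that starts coagulation, rose on the log2 scale by 1.30 (adjusted *p* = 0.00363, limma) and *Nr4a2*, a nuclear receptor, by 1.19 (adjusted *p* = 0.00709, limma). All 3 are also controlled by other signals. Of the 9 tested class 3 semaphorins and plexins, which share the neuropilins, 3 fell and 1 rose (median -0.52), against 5.57% and 4.45% of all genes. *Sema3f*, the *Nrp2* ligand, changed by -1.58 on the log2 scale (adjusted *p* = 0.00254), *Sema3b* by -1.21, *Plxna2* by -0.52 and *Sema3a*, the *Nrp1* ligand, by 1.05 (adjusted *p* = 0.00359, limma).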

How the data were processed

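Stranded mRNA libraries of 5 samples were sequenced in pairs. The submitters' processing notes name FastQC, cutadapt, Trimmomatic, STAR, RSEM and edgeR, with GRCm38 (mm10); the annotation the authors used is not given in the sources used here. The authors deposited 1 table of normalized CPM values, in a file named for TMM, whose columns summed to 999956 to 1000111. Of nonzero values under 0.5 CPM, 30.5% to 54.7% lay within 0.1 of a whole multiple of the commonest low value, so whole reads were not recovered, no count test was run and depth is unknown. The columns of all 5 samples entered, and 0 columns stayed out.

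The test was limma 3.58.1 (R 4.3.3, 2-group design, variance trend) on log2(CPM + 0.5), run over the 12175 genes that reached 0.5 CPM in 2 or more samples and adjusted over all of them by Benjamini-Hochberg. The call was an adjusted *p* under 0.01, and separately with a log2 fold-change beyond 1. The scripts were tested on simulated data. Of 21835 identifiers, 21795 were named from GENCODE M21, which also gave coordinates, exon lengths and 3′-UTRs; all 3 mature miRNAs were matched in RefSeq. Seeds were bases 2 to 8.

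The 10 genes and all lists (6 of the pathway, 6 of cell type markers, and *Zeb1* and *Zeb2*) were chosen with earlier results of these data known. Named genes were the 10, *Zeb1* and *Zeb2*, up to 3 lower and 3 higher of each pathway list with the largest called change, and markers at 0; other markers, *Nos3* and *Nr4a3* were chosen after their values were seen. Alternatives were a pseudocount of 1 or 0.1 CPM, no filter, a filter of 1 CPM in all samples, quantile normalization, centring on the sample median, no variance trend, other thresholds, a replicate block, each sample left out, the longest coding transcript as length, any annotated 3′-UTR and a seed of bases 2 to 7. Alternative fits of the other named genes, and marker sums without *Egfl7* or *Lyz2*, were added after seeing the data. Computations used Python 3.11.15, pandas 2.3.3, numpy 2.4.6 and matplotlib 3.10.9.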

Additional observations from a re-analysis of the deposited data

How the results depend on the processing

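The log2 fold-change of each of the 10 genes kept its direction under every alternative fit, 13 each and 12 for *Kdr*, which the filter of at least 1 CPM in every sample removed. No class share or ratio named below turned its direction. Of 24 other named genes, 23 kept their direction under 12 or 13 alternative fits, added after seeing the data, and *Zeb2* ran from -0.54 to 0.083 with 1 sample left out, turning positive without CAF-vec 1. The calls were less stable. Family genes lower at an adjusted *p* under 0.01 numbered 4, against 2 without a filter, 2 with a log2 fold-change beyond 1 as well, and 0 to 6 with 1 sample left out. Family genes higher numbered 0, against 1 with quantile normalization, 2 with centring on the sample median, 1 without a variance trend, 4 at an adjusted *p* under 0.05 and 0 to 3 with 1 sample left out. Pathway genes lower numbered 9, against 4 without a filter, 25 at an adjusted *p* under 0.05, 5 with a log2 fold-change beyond 1 and 0 to 44 with 1 sample left out, and pathway genes higher numbered 9, against 0 to 23. Over all genes, 678 were lower and 542 higher, against 376 and 347 without a filter, 1951 and 1550 without CAF-vec 1, 3766 and 2307 without CAF-vec 2, and 0 and at most 1 without any 1 CAF-200 sample. Leaving out a CAF-vec sample takes the wide CAF-vec spread out of the error. Of all calls, 55.6% were lower, against 46.0% with quantile normalization and 43.0% with centring and 40.9% with the replicate block. Under these 3 settings more genes were higher than lower. With quantile normalization and centring the median over all genes shifted to -0.016 and 0.0027 log2 units, from -0.094.

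With the replicate number as a block, 0 family genes were lower and 0 higher at an adjusted *p* under 0.01 (limma), with 5 lower and 4 higher at an unadjusted *p* under 0.05, against 20.4% and 12.9% of all genes, and 2 pathway genes were lower and 3 higher; over all genes 70 were lower and 101 higher. The samples share only a number: the deviations of same-numbered samples correlated at 0.25 and 0.13, over 2 pairs, and CAF-vec 2 correlated at 0.12 with CAF-200 3.

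With 1 sample left out, the change in class share ran from -9.14 to -5.74 percentage points for *Vegfb*, from -8.20 to -4.51 for *Kdr* and from -3.45 to -2.38 for *Nrp2*, and the log2 difference of the *Nrp2* to *Nrp1* ratio from -0.47 to -0.33. Per length of the longest coding transcript, the change was 10.7 percentage points for *Flt4* (14.1 per exon length) and -2.06 for *Nrp2* (-2.92). The adjusted *p* (limma) ran over the alternatives from 5.10e-05 to 0.0335 for *Nrp2*, 7.03e-05 to 0.0288 for *Vegfb*, 0.00139 to 0.0440 for *Kdr* and 4.80e-04 to 0.0557 for *Flt1*. A seed of 6 bases gave a match in 6 of the 10 genes, against 4, and in 54.7% of all tested genes with a 3′-UTR, against 30.3%. Except where stated, the cause was not tested. The number of reads behind *Kdr*, *Flt4* and *Vegfc*, the lowest of the 10, is unknown.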
